A study of Mus musculus with 14 samples.

Results

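In this comparison, 4 inhibitors whose target label names JAK1 or TYK2 were set against 3 whose label names JAK2 or JAK3 only, in mouse CD4+ T cells exposed to interferon alpha for 8 h. By their sample titles and target labels, the JAK1/TYK2-naming class holds IFN.3404 (JAK1), IFN.6221 (JAK1/2), IFN.6222 (PAN, taken here to include JAK1) and IFN.2485 (TYK2). The JAK2/JAK3-only class holds IFN.3885 (JAK2) and the pair IFN.6226 and IFN.6228 (both JAK3). The inhibitors are called by their target label below, except that pair. Titles and labels assigned the arrays to the classes, and they are 7 of the 14 arrays of the study, the other 7 having been taken at 2 h. Negatively selected CD4+ cells from spleens of male C57BL/6 mice aged 6 weeks had been stimulated with CD3/CD28 beads during 48 h. All 14 cultures then received interferon alpha at 100 U/ml and 1 inhibitor at its IC80, and total RNA was hybridised to Affymetrix Mouse Gene 1.0 ST arrays. Cultures lacking inhibitor or lacking interferon were not used here, and the size of the interferon response itself was therefore not measured. Each inhibitor and time has 1 array, so that a p between the classes rests on the spread among compounds of a class, and the labels do not say whether cultures were separate.

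Interferon alpha signals through IFNAR1, which binds TYK2, and IFNAR2, which binds JAK1. The kinases phosphorylate STAT proteins, among them STAT2, which joins IRF9 in the complex ISGF3, and ISGF3 switches on antiviral genes through the interferon-stimulated response element in their promoters. JAK2 and JAK3 serve other cytokine receptors, JAK3 that of the IL-2 family together with JAK1.

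The 8 h arrays carried T cell markers at high and even levels, with Cd3e at a log2 intensity of 12.30 to 12.53 and Cd4 at 11.87 to 12.11. Markers of other cells were read too, among them Cd8b1 (9.03 to 9.33), Ms4a1 of B cells (8.79 to 9.12) and Cd74 of antigen-presenting cells (10.18 to 10.59). Ncr1 of NK cells (4.27 to 4.91) was dim, while 2 of 7 NK markers passed the filter on dim genes, Klrd1 (6.88 to 7.41) and Gzma (6.20 to 7.43). Of 10 granulocyte markers 1 passed, Mpo (6.29 to 6.83), with S100a8 at 4.22 to 4.49. All 5 platelet markers passed, and Ppbp varied widely within both classes, reading 6.98, 8.35, 7.46 and 6.79 with the JAK1, JAK1/2, PAN and TYK2 inhibitors, against 6.45, 8.77 and 9.42 with the JAK2 inhibitor, IFN.6226 and IFN.6228. The mean over 9 B cell markers was 7.24 to 7.37 in the JAK1/TYK2-naming class and 7.29 to 7.45 in the JAK2/JAK3-only class, and the ranges overlapped. In bulk RNA, fewer cells of a type and less RNA per cell cannot be told apart. The array of the JAK1 inhibitor stood apart, with the lowest mean Pearson r with the other 8 h arrays (0.99, against 0.993 to 0.996 for the rest, across probe sets). Because of that measured deviation, the main results are given with and without it. Where only 1 difference or median is printed for a gene or list, it includes that array unless stated. Its upper quartile of intensity was also the lowest, and those of the JAK1, JAK1/2, PAN and TYK2 inhibitors (398, 427, 461 and 444) all lay below those of the JAK2 inhibitor, IFN.6226 and IFN.6228 (497, 464 and 464).

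Interferon-stimulated genes as a group lay lower under the JAK1/TYK2-naming inhibitors at 8 h, while no single gene passed the test between the classes. The 9 lists of such genes hold 98 genes, of which 87 were on the array under a symbol of their own and 81 were bright enough to be tested. Their median log2 difference was -0.38, a 1.3-fold lower intensity, beside -0.082 over all 11851 genes tested. It was -0.23 without the JAK1 inhibitor (1.17-fold), beside -0.055 over all genes. Of the 81 genes, 78 had a difference below 0 both with and without the JAK1 inhibitor, beside 70% and 68.8% of all genes. All 4 JAK1/TYK2-naming values lay below all 3 JAK2/JAK3-only values, which is called without overlap lower here, in 56 of the 81 genes. All values of the remaining 3 did so in the same number when the JAK1 inhibitor was left out. The shares of all genes were 13.6% and 15.2%. Leaving an array out cannot make separated classes overlap, so the second count could not be smaller than the first. Higher without overlap were 0 of 81, beside 5.56% and 6.76% of all genes.

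With limma and Benjamini-Hochberg adjustment over all genes, 0 genes were called lower (0%) and 0 higher (0%), the smallest adjusted p being 0.307. Leaving out the JAK1 inhibitor again gave 0 and 0, with a smallest adjusted p of 0.201. At an unadjusted p under 0.05, 1175 genes were lower (9.91%) and 683 higher (5.76%). Left without the JAK1 inhibitor, the comparison gave 962 (8.12%) and 605 (5.11%). Of the 81 interferon-stimulated genes, 50 were lower at that level and 0 higher with all inhibitors, and 55 and 1 without the JAK1 inhibitor. The differences below are therefore given with their standard error and are not called changes.

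**Figure D1:**
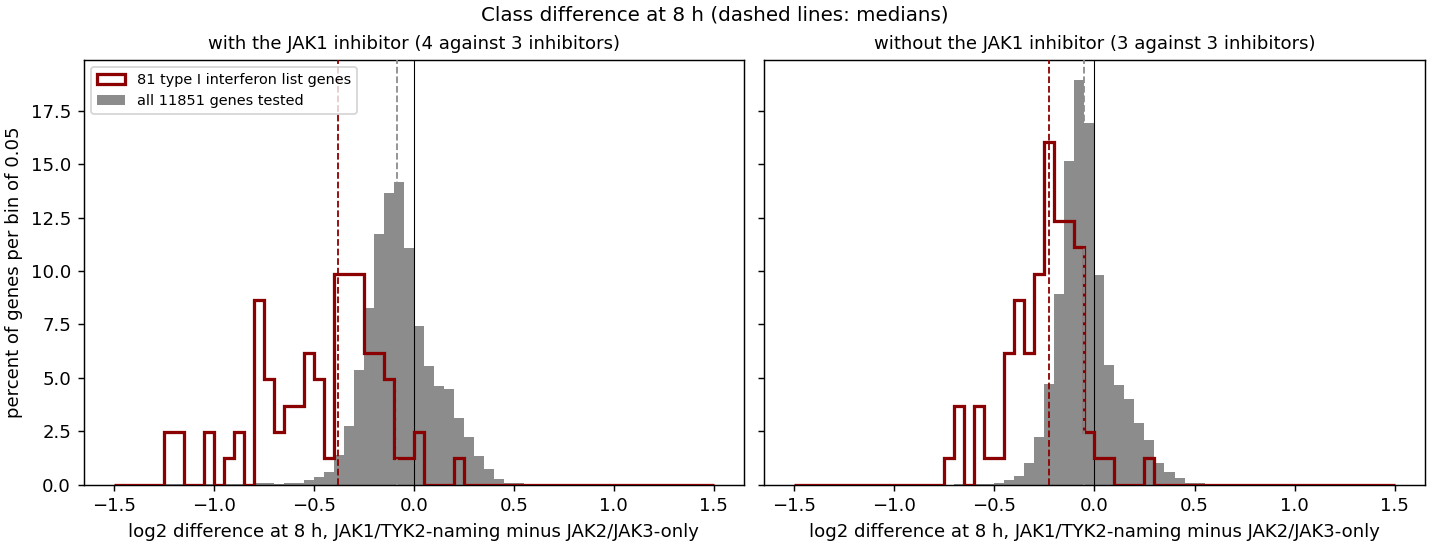
Percent of genes per bin of log2 difference at 8 h, JAK1/TYK2-naming minus JAK2/JAK3-only, for the 81 interferon-stimulated genes (red outline) and all genes tested (grey), with the JAK1 inhibitor on the left and without it on the right. Dashed lines are medians, -0.38 against -0.082 on the left and -0.23 against -0.055 on the right.

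To show what lies upstream of these genes, 4 promoter windows are printed from RefSeq (assembly GRCm38.p6), each from 250 bases before to 50 bases after the start and written 5' to 3' on the strand of the gene. Ifit3, Ifitm3, Oas3 and Ddx60 were taken because they are among the 6 interferon-stimulated genes of smallest p without the JAK1 inhibitor. Mx2 and Gm4951 are the other two. Capitals mark each match to the core of the interferon-stimulated response element, which is GAAA, then 2 bases of any kind, then GAAA, read on either strand. The windows are chr19:34583279-34583578 (plus strand) for Ifit3, chr7:141010695-141010994 (minus) for Ifitm3, chr5:120777610-120777909 (minus) for Oas3 and chr8:61927837-61928136 (plus) for Ddx60.
Ifit3: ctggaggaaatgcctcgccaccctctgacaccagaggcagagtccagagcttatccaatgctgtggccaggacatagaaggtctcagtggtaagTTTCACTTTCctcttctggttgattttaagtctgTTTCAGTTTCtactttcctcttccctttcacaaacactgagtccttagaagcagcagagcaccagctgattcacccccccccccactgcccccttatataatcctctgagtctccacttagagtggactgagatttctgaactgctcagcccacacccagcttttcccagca
Ifitm3: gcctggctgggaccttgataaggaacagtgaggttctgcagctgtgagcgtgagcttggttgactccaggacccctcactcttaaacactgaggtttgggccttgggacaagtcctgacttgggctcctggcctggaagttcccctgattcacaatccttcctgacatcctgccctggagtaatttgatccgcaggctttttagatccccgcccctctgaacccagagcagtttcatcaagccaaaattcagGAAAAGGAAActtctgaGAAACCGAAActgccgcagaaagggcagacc
Oas3: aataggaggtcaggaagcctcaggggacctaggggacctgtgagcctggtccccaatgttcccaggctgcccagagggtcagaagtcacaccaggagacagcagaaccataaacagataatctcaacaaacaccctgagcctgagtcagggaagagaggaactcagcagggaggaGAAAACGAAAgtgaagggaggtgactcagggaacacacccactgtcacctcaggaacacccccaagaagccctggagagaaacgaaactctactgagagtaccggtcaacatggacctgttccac
Ddx60: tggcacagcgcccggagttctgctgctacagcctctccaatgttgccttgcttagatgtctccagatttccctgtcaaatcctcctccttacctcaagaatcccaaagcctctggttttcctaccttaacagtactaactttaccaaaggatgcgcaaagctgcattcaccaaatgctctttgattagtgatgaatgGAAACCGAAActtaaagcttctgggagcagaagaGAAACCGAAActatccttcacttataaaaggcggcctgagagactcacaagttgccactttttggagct

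The window of Ifit3 holds 2 matches, beginning 156 and 122 bases before the start, both on the opposite strand. Ddx60 holds 2, beginning 53 and 19 bases before the start, and Oas3 holds 1, beginning 75 before it. In Ifitm3 the 2 matches begin 2 and 19 bases past the start. A window was found for 64 of the 81 genes, and 27 of these (42.2%) held that core. The share was 3.57% of the 9497 tested genes with a window and 3.99% of all 27025 genes with a window. A gene with several windows counted if any of them matched. TTCNNNGAA, the core of a STAT site, was in 11 of the 64 (17.2%), beside 8.17% and 9.55%. Both motifs were searched on both strands, and a match describes letters, not binding.

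The receptor chains and kinases differed little between the classes. Ifnar1 read 10.400, 10.51, 10.54 and 10.52 with the JAK1, JAK1/2, PAN and TYK2 inhibitors, against 10.51, 10.57 and 10.65 with the JAK2 inhibitor, IFN.6226 and IFN.6228. Its values overlapped between the classes, with a difference of -0.084 (SE 0.077). Ifnar2 differed by -0.072 (SE 0.077) and Tyk2 by 0.0041 (SE 0.11), both with overlap, and for all 3 genes the sign turned under at least 1 other scaling of the arrays. Jak1 differed by -0.089 (SE 0.063) and Jak2 by -0.19 (SE 0.080), without overlap. Over 18 kinases and receptor chains the median was -0.078 and 3 lay without overlap lower, close to the values for all genes. Jak3 and Isg15 were not analysed here.

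Among the transcription factors, Stat2 and Irf7 lay lower in every array of the JAK1/TYK2-naming class, whereas for Irf9 the array of the JAK1 inhibitor alone stood well below the rest. Stat2, a STAT subunit of ISGF3, read 9.15, 10.002, 10.04 and 9.85 with the JAK1, JAK1/2, PAN and TYK2 inhibitors, against 10.39, 10.28 and 10.17 with the JAK2 inhibitor, IFN.6226 and IFN.6228. The classes did not overlap and the JAK1 inhibitor was lowest, the difference being -0.52 (SE 0.18) and, without that inhibitor, -0.32 (SE 0.078). Irf7, which drives further interferon production, read 8.88, 10.48, 10.47 and 10.22 with the JAK1, JAK1/2, PAN and TYK2 inhibitors, against 10.76, 10.63 and 10.66 with the JAK2 inhibitor, IFN.6226 and IFN.6228. Its difference of -0.67 (SE 0.30) was -0.29 (SE 0.077) without the JAK1 inhibitor, also without overlap. Irf9, the DNA-binding subunit of ISGF3, read 10.25, 10.93, 10.89 and 10.82 with the JAK1, JAK1/2, PAN and TYK2 inhibitors, against 10.899, 10.86 and 10.94 with the JAK2 inhibitor, IFN.6226 and IFN.6228. Apart from the JAK1 inhibitor its arrays were level across the classes, with a difference of -0.18 (SE 0.14) that came to -0.019 (SE 0.059) without it. Irf1, which also answers interferon gamma, differed by -0.26 (SE 0.10) without overlap. In this list of 7 factors the median was -0.18 (-0.14 without the JAK1 inhibitor), and 3 lay without overlap lower.

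The IFIT genes, Mx GTPases and viperin, effectors that act on viral RNA and replication, had the largest median differences of the 9 lists. Ifit3, a partner of the RNA-binding IFIT1, read 7.13, 9.42, 9.63 and 9.05 with the JAK1, JAK1/2, PAN and TYK2 inhibitors, against 10.01, 10.11 and 9.999 with the JAK2 inhibitor, IFN.6226 and IFN.6228. All 4 values of the JAK1/TYK2-naming class lay below the other 3, with the JAK1 inhibitor far below the rest. The class means were 8.81 ± 1.15 (SD, n = 4) and 10.04 ± 0.064 (SD, n = 3), 2.34-fold apart (limma adjusted p = 0.307). The difference was -1.23 (SE 0.45), and -0.67 (SE 0.12) without the JAK1 inhibitor (1.59-fold, limma adjusted p = 0.201). Mx2, an antiviral GTPase of the Mx family, read 5.25, 7.29, 7.41 and 7.01 with the JAK1, JAK1/2, PAN and TYK2 inhibitors, against 8.10, 7.93 and 7.75 with the JAK2 inhibitor, IFN.6226 and IFN.6228. Here too the classes were apart, by -1.19 (SE 0.40) and, without the JAK1 inhibitor, -0.69 (SE 0.12). Rsad2, which encodes viperin, read 6.81, 8.80, 9.20 and 8.57 with the JAK1, JAK1/2, PAN and TYK2 inhibitors, against 9.60, 9.45 and 9.501 with the JAK2 inhibitor, IFN.6226 and IFN.6228. The TYK2 inhibitor was second lowest, and the difference of -1.18 (SE 0.41) was -0.67 (SE 0.13) without the JAK1 inhibitor. Mx1 differed by -1.04 (SE 0.36), Ifit1 by -0.74 (SE 0.35) and Cmpk2, the nucleotide kinase beside Rsad2 in the genome, by -0.77 (SE 0.29), each without overlap. All 4 tested genes of the Mx and viperin list and all 3 of the IFIT list lay without overlap, with medians of -1.11 and -0.74. Without the JAK1 inhibitor these medians were -0.63 and -0.31.

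The oligoadenylate synthetases, which activate RNase L, and the sensors of viral nucleic acid lay lower too, at medians of -0.50 and -0.39. Without the JAK1 inhibitor the medians were -0.27 and -0.17, and that of the sensors was then smaller in size than that of the Schlafen list (-0.24). Oas3 read 9.12, 10.03, 10.13 and 9.89 with the JAK1, JAK1/2, PAN and TYK2 inhibitors, against 10.49, 10.37 and 10.39 with the JAK2 inhibitor, IFN.6226 and IFN.6228. Its classes were apart by -0.63 (SE 0.19), and by -0.40 (SE 0.075) without the JAK1 inhibitor. Oasl2, an OAS-like protein, read 6.78, 8.71, 9.04 and 8.52 with the JAK1, JAK1/2, PAN and TYK2 inhibitors, against 9.77, 9.36 and 9.27 with the JAK2 inhibitor, IFN.6226 and IFN.6228. The difference was -1.21 (SE 0.40), or -0.71 (SE 0.14) without the JAK1 inhibitor, and the values of IFN.6226 and IFN.6228 lay below that of the JAK2 inhibitor. In the OAS list 7 of 7 differences were negative and 4 genes lay without overlap. Ddx60, a helicase linked to RIG-I signalling, read 6.000, 7.93, 8.13 and 7.76 with the JAK1, JAK1/2, PAN and TYK2 inhibitors, against 8.49, 8.45 and 8.45 with the JAK2 inhibitor, IFN.6226 and IFN.6228. The 3 JAK2/JAK3-only values lay close together and above the others, the difference being -1.01 (SE 0.38) and, without the JAK1 inhibitor, -0.52 (SE 0.098). Ifih1 (MDA5), a sensor of long double-stranded RNA, differed by -0.69 (SE 0.27), Ddx58 (RIG-I) by -0.35 (SE 0.16) and Eif2ak2 (PKR), which halts translation, by -0.76 (SE 0.31), each without overlap. Of 9 sensors, 9 were negative and 6 without overlap.

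Genes of ISG15 conjugation and its removal were lower in the same arrays. Usp18, the protease that removes ISG15 and also restrains IFNAR2, read 8.74, 10.85, 10.85 and 10.53 with the JAK1, JAK1/2, PAN and TYK2 inhibitors, against 11.29, 11.12 and 11.10 with the JAK2 inhibitor, IFN.6226 and IFN.6228. It lay without overlap lower, with a difference of -0.93 (SE 0.39) and, without the JAK1 inhibitor, -0.43 (SE 0.088). Ube2l6, the E2 enzyme for ISG15, differed by -0.78 (SE 0.32), and Trim25, an E3 ligase of the RIG-I pathway, by -0.33 (SE 0.15). In that list 5 of 6 genes lay without overlap. Of the Schlafen family 5 of 6 did, with Slfn5 at -0.78 (SE 0.26), and of the interferon-inducible PARP family 5 of 7, with Parp12 at -0.78 (SE 0.32).

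Membrane and secreted products were less even. Ifitm3, which hinders viral entry, read 6.70, 7.16, 7.34 and 7.02 with the JAK1, JAK1/2, PAN and TYK2 inhibitors, against 7.93, 7.66 and 7.74 with the JAK2 inhibitor, IFN.6226 and IFN.6228. The classes did not overlap, and the JAK1 inhibitor lay nearer to the others of its class than for Ifit3. The difference was -0.72 (SE 0.14), or 1.64-fold, and without the JAK1 inhibitor -0.60 (SE 0.11), or 1.51-fold, with limma adjusted p of 0.307 and 0.201. Bst2 (tetherin), which holds budding virus, differed by -0.57 (SE 0.22) and Tnfsf10 (TRAIL), a death ligand, by -0.55 (SE 0.17), both without overlap. Cxcl10, a chemokine, read 6.46, 6.92, 6.96 and 6.81 with the JAK1, JAK1/2, PAN and TYK2 inhibitors, against 6.99, 6.94 and 6.98 with the JAK2 inhibitor, IFN.6226 and IFN.6228. Its classes overlapped and its difference was -0.19 (SE 0.12). In the list of other antiviral and membrane genes 21 of 32 lay without overlap and 30 were negative.

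**Figure D2:**
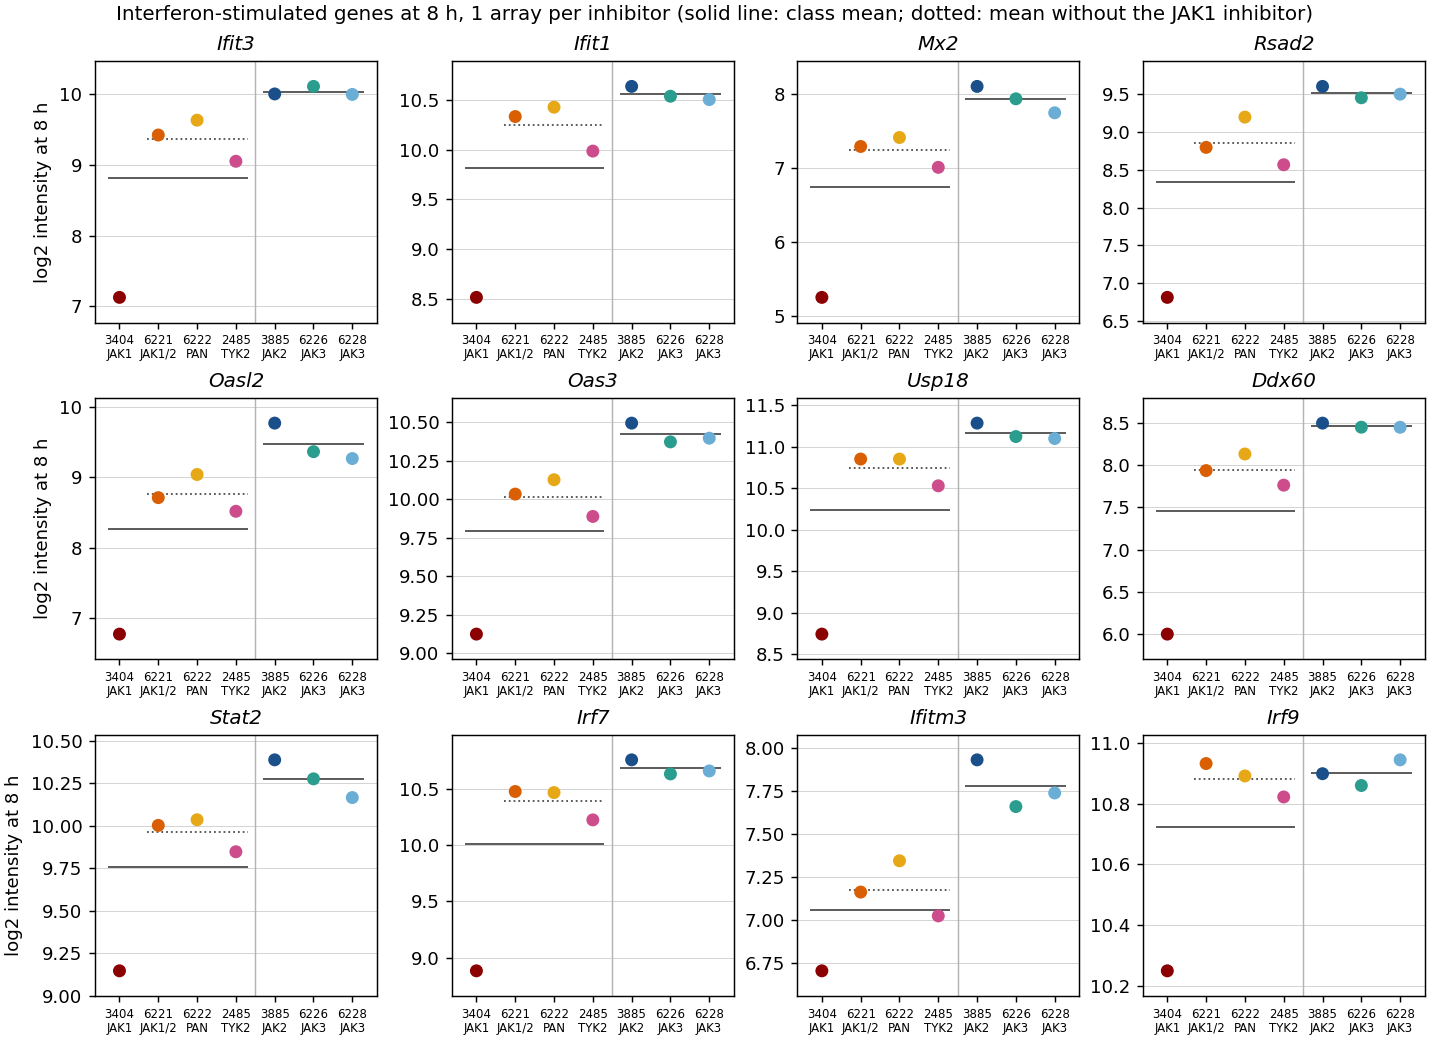
Log2 intensity at 8 h of 12 interferon-stimulated genes, 1 point per array, with the JAK1/TYK2-naming inhibitors left of the grey line and the JAK2/JAK3-only inhibitors right of it. Solid lines are class means, dotted lines the mean without the JAK1 inhibitor, whose point is the lowest in each of the 12 panels. In the panel of Irf9 the other 3 inhibitors of its class lie between 10.82 and 10.93, level with the JAK2/JAK3-only class.

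Interferon-inducible GTPases and antigen presentation genes, which interferon gamma also induces, lay lower too, the GTPases by about as much as the 81 genes and the antigen presentation genes by less. Iigp1, an immunity-related GTPase, read 6.84, 8.56, 8.72 and 8.52 with the JAK1, JAK1/2, PAN and TYK2 inhibitors, against 9.14, 9.05 and 9.03 with the JAK2 inhibitor, IFN.6226 and IFN.6228. The classes were apart by -0.91 (SE 0.35), and by -0.47 (SE 0.081) without the JAK1 inhibitor. In the GBP and IRG list 9 of 9 genes were negative and 6 lay without overlap, with a median of -0.41 and, without the JAK1 inhibitor, -0.26. Irgm1, a regulator of these GTPases, differed by -0.52 (SE 0.20) and Gbp4 by -0.38 (SE 0.14). Of 12 genes of MHC class I loading and the immunoproteasome, 6 lay without overlap, at a median of -0.17 (-0.13 without the JAK1 inhibitor). Psme2, a proteasome activator subunit, differed by -0.37 (SE 0.14), Erap1, which trims peptides, by -0.29 (SE 0.10) and Tap1, which carries them into the endoplasmic reticulum, by -0.20 (SE 0.087).

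Within the JAK1/TYK2-naming class, each inhibitor was set against the mean of the 3 JAK2/JAK3-only arrays in 1 limma fit, whose spread comes from those 3 arrays alone, and the 4 comparisons share them. With 1 array per inhibitor, an effect of the compound and a deviation of its array cannot be told apart, and the calls describe these arrays. A gene called lower or higher here is so relative to the JAK2/JAK3-only mean, not to cells without inhibitor. Adjusted over all 4 together, 1813 genes were called lower under the JAK1 inhibitor (15.3%) and 190 higher (1.6%). For the JAK1/2 inhibitor these counts were 280 (2.36%) and 187 (1.58%), for the PAN inhibitor 3 and 3 (0.0253% each) and for the TYK2 inhibitor 50 (0.422%) and 8 (0.0675%). Of the 81 interferon-stimulated genes, 65 were called lower with the JAK1 inhibitor, 9 with the JAK1/2 inhibitor, 0 with the PAN inhibitor and 19 with the TYK2 inhibitor, and 0 higher with any of them. The split of all calls moved with the scaling of the arrays. With the JAK1 inhibitor quantile normalization gave 875 lower and 574 higher, and cyclic loess 576 and 337. With the JAK1/2 inhibitor they were 1368 and 123 after median centring. For the JAK1, JAK1/2, PAN and TYK2 inhibitors in that order, quantile normalization called 59, 5, 0 and 16 of the 81 interferon-stimulated genes lower. Cyclic loess called fewer of them lower than quantile normalization did with the JAK1, JAK1/2 and TYK2 inhibitors. Centring on the median called more of them lower with each inhibitor than the values as deposited. It also called more of all genes lower with each inhibitor, so that the rise was not limited to the 81 genes.

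Without a test, over the 81 genes the median difference was -0.93 with the JAK1 inhibitor (1.91-fold), -0.22 with the JAK1/2 inhibitor (1.17-fold), -0.15 with the PAN inhibitor (1.11-fold) and -0.31 with the TYK2 inhibitor (1.24-fold). The array lay below all 3 JAK2/JAK3-only arrays in 77 genes with the JAK1 inhibitor, 71 with JAK1/2, 58 with PAN and 76 with TYK2. For all genes those shares were 57.3%, 50.3%, 29% and 41.3%. The JAK1 inhibitor had the lowest of the 7 values in 74 of the 81 genes (91.4%), beside 45.3% of all genes. With it set aside, the TYK2 inhibitor was lowest in 65 and the JAK1/2 inhibitor in 11, and the shares of all genes were not counted. The highest value belonged to the JAK2 inhibitor in 46 genes, again without a share over all genes. Its array also read higher in general, by a median of 0.12 over all genes tested against the mean of the other 8 h arrays.

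Ifit3 was called lower with the JAK1 inhibitor, its log2 difference being -2.91 (limma adjusted p = 8.03e-05), with the TYK2 inhibitor (-0.99, adjusted p = 0.00467) and with the JAK1/2 inhibitor (-0.61, adjusted p = 0.0184). With the PAN inhibitor its difference was -0.40 (limma adjusted p = 0.0581), which did not pass. Rsad2 was called lower with the same 3 inhibitors, with differences of -2.71, -0.95 and -0.72 in that order, and differed by -0.32 with the PAN inhibitor. Irf9 was called lower with the JAK1 inhibitor (-0.65, limma adjusted p = 0.0103) and lay at 0.031, -0.0096 and -0.079 with the JAK1/2, PAN and TYK2 inhibitors. The genes called with the PAN inhibitor were Snord22 (-0.77), Zbtb41 (-0.50) and Eif5a (-0.32), which were lower, and Lst1 (0.54), Olfr316 (0.89) and Cpa3 (1.10), which were higher. None of these 6 is in the interferon lists, and Zbtb41, Eif5a, Lst1 and Cpa3 were named after their values were seen.

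**Figure D3:**
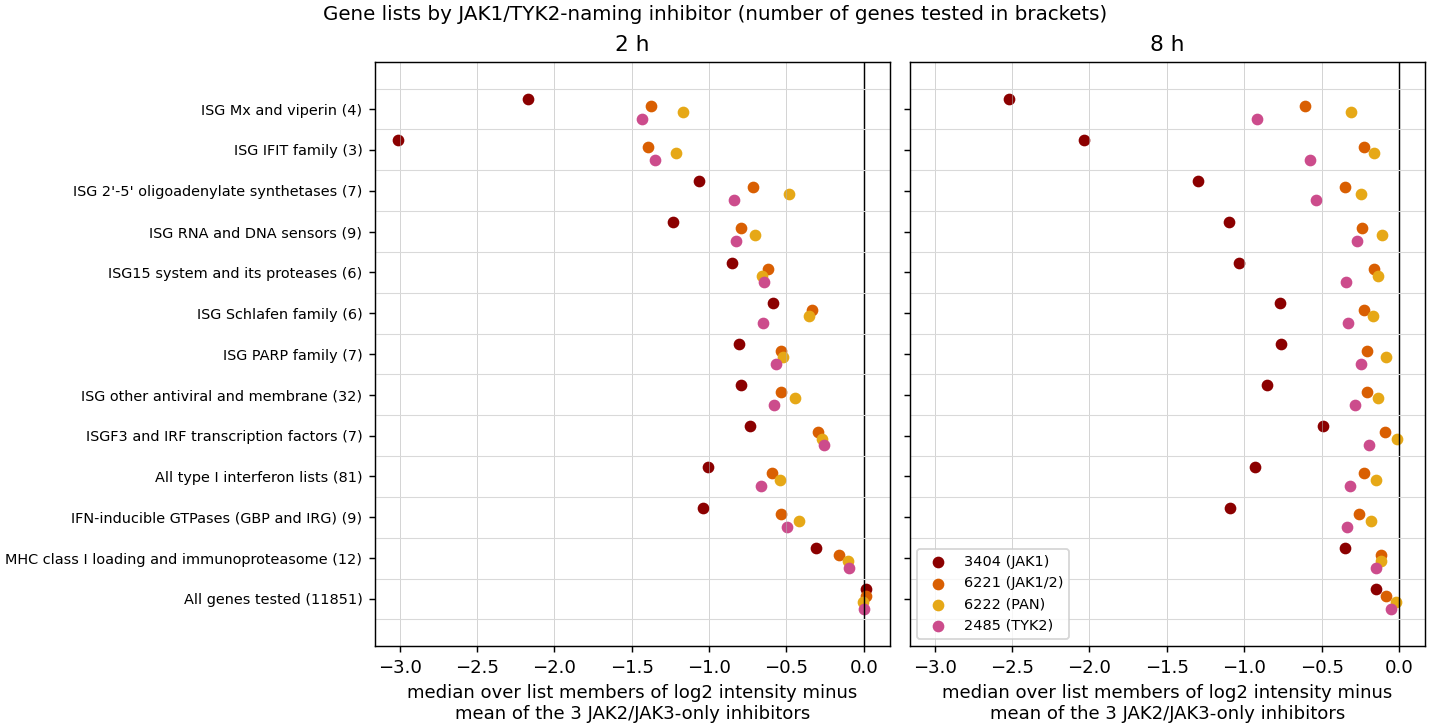
Median over the tested members of each list (number in brackets) of log2 intensity minus the mean of the 3 JAK2/JAK3-only inhibitors, 1 point for each JAK1/TYK2-naming inhibitor, at 2 h (left) and 8 h (right). Over all 81 interferon-stimulated genes the points of the JAK1, JAK1/2, PAN and TYK2 inhibitors lie at -1.01, -0.60, -0.54 and -0.66 at 2 h and at -0.93, -0.22, -0.15 and -0.31 at 8 h.

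The gap at 8 h was narrower than at 2 h for most interferon-stimulated genes. At 2 h, on the other 7 arrays, 82 genes passed as lower (0.692%) and 0 as higher, 49 of them from the interferon lists. The 2 h count was 35 without the JAK2 inhibitor, 47 without IFN.6226 and 28 without IFN.6228. At 8 h all 82 had a negative difference and 56 lay without overlap, beside 70% and 13.6% of all genes. The median over the 81 genes was -0.69 at 2 h (1.61-fold) and -0.38 at 8 h, and without the JAK1 inhibitor -0.60 and -0.23. The difference was smaller in size at 8 h in 67 of the 81 genes, and in 74 without the JAK1 inhibitor, beside 2936 and 3225 of all 11851 genes.

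The test of this change took the 8 h value minus the 2 h value of each inhibitor. It called 12 genes with a higher change in the JAK1/TYK2-naming class (0.101%) and 0 with a lower one, and 10 of the 12 are in the interferon lists. When the JAK1 inhibitor was left out, 39 were higher (0.329%) and 1 lower (0.00844%), 32 of them in the lists, and all 12 were among them. The lower one was H2ac4, a histone H2A gene (-0.55, limma adjusted p = 0.0105). Usp18 had a class difference of -1.99 at 2 h and -0.93 at 8 h, a change of 1.06 (limma adjusted p = 0.000488). Its 8 h value minus its 2 h value was 1.43, 1.71, 1.53 and 1.40 with the JAK1, JAK1/2, PAN and TYK2 inhibitors, against 0.42, 0.50 and 0.46 with the JAK2 inhibitor, IFN.6226 and IFN.6228. Between the remaining inhibitors, without the JAK1 inhibitor, the change was 1.20 for Ifit3 (limma adjusted p = 0.000569) and 1.12 for Rsad2 (adjusted p = 0.00022). The count of 12 was 2 without the JAK1/2 inhibitor, without the JAK2 inhibitor, without IFN.6226 or without IFN.6228, and the count of 40 was 23 without IFN.6228. Over the 81 genes the median of 8 h minus 2 h was 0.28, 0.74, 0.70 and 0.59 with the JAK1, JAK1/2, PAN and TYK2 inhibitors, against 0.36, 0.33 and 0.27 with the JAK2 inhibitor, IFN.6226 and IFN.6228. The value of the JAK1 inhibitor lay in the range of the JAK2/JAK3-only class, and the other 3 lay above it. Over all genes the medians were -0.10, -0.032, 0.0081 and 0.017 with the JAK1, JAK1/2, PAN and TYK2 inhibitors. With the JAK2 inhibitor, IFN.6226 and IFN.6228 they were 0.053, -0.017 and 0.0030. The JAK1 inhibitor was thus lowest over all genes, and the medians over the 81 genes are not corrected for that.

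Ifitm3 went the other way, with a class difference of -0.35 at 2 h and -0.72 at 8 h, though the change did not pass (limma adjusted p = 0.485). Without the JAK1 inhibitor 7 of the 81 genes were not narrower at 8 h: Oas1a, Aim2, Ifitm2, Ifitm3, Ly6e, Irf5 and Batf2. Apart from Ifitm3 these were named after their values were seen.

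**Figure D4:**
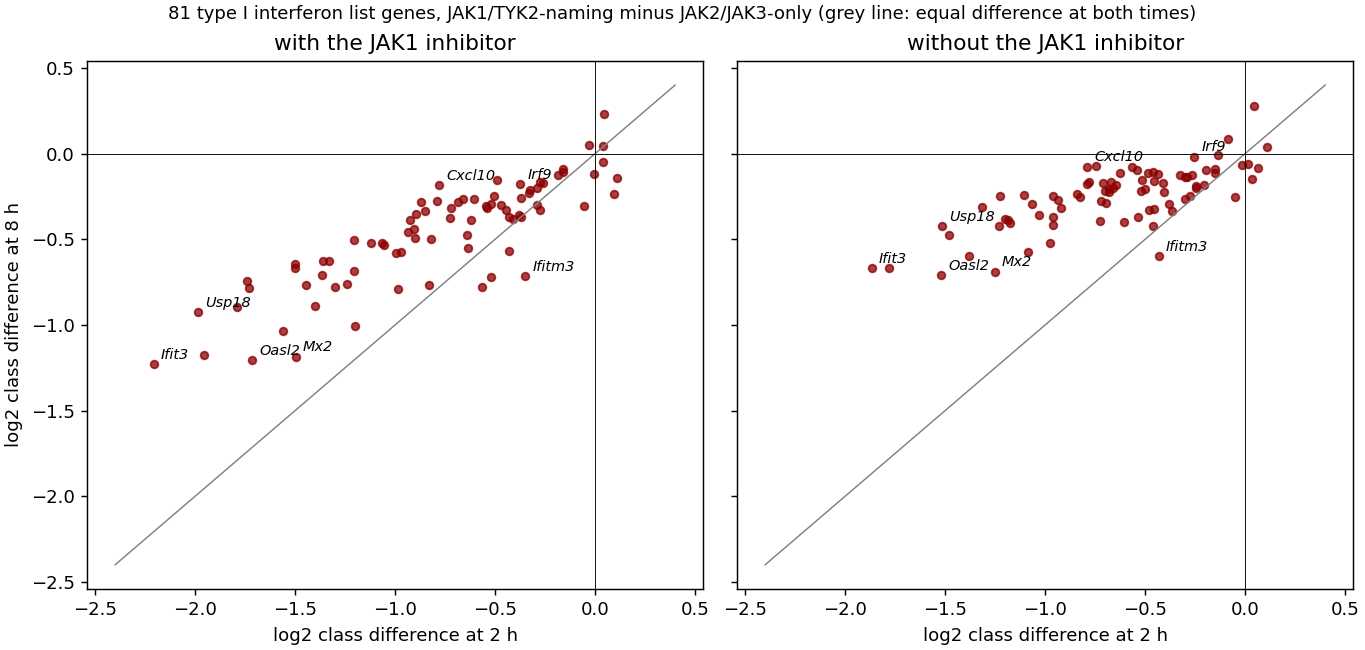
Log2 class difference of the 81 interferon-stimulated genes, JAK1/TYK2-naming minus JAK2/JAK3-only, at 2 h (horizontal axis) and at 8 h (vertical axis), with the JAK1 inhibitor on the left and without it on the right. The grey line marks equal differences at both times. The difference was smaller in size at 8 h for 67 and 74 of the 81 genes, and Ifitm3 lies below the line in both panels.

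Lists of other JAK pathways lay near all genes, of which 13.6% were without overlap lower and whose median was -0.082. Of 26 IL-2 and STAT5 targets, 2 lay without overlap lower, at a median of -0.090, and of 17 feedback inhibitors 2 did, at -0.077. Cish, a STAT5 target that restrains cytokine receptors, read 8.10, 8.26, 8.07 and 8.13 with the JAK1, JAK1/2, PAN and TYK2 inhibitors, against 9.01, 7.71 and 7.82 with the JAK2 inhibitor, IFN.6226 and IFN.6228. The JAK2 inhibitor was highest and IFN.6226 and IFN.6228 were lowest, so that the class difference of -0.041 (SE 0.24) was 0.37 without the JAK2 inhibitor. Socs2, another STAT5 target, read 8.47, 8.40, 8.69 and 8.80 with the JAK1, JAK1/2, PAN and TYK2 inhibitors, against 9.40, 8.49 and 8.52 with the JAK2 inhibitor, IFN.6226 and IFN.6228. Il2ra, the IL-2 receptor alpha chain, read 11.90, 11.93, 12.09 and 11.87 with the JAK1, JAK1/2, PAN and TYK2 inhibitors, against 12.35, 11.91 and 11.89 with the JAK2 inhibitor, IFN.6226 and IFN.6228. In both the JAK2 inhibitor was again highest, and the differences of -0.21 and -0.10 turned to 0.085 and 0.049 without it. Cd69, an early activation marker, read 9.28, 9.55, 9.81 and 9.80 with the JAK1, JAK1/2, PAN and TYK2 inhibitors, against 10.11, 10.05 and 10.0003 with the JAK2 inhibitor, IFN.6226 and IFN.6228. It lay without overlap lower, with a difference of -0.44 (SE 0.12) and, without the JAK1 inhibitor, -0.33 (SE 0.082). Cd69 belongs to the list of early T cell receptor response genes, not to the lists above. Of 24 tested genes in its list, 2 lay without overlap lower, at a median of -0.013. Without the JAK1 inhibitor 4 did, at a median of -0.087, beside 15.2% and -0.055 for all genes.

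With the JAK1 inhibitor included, lists of growth and metabolism had medians below the -0.082 of all genes. Their shares without overlap lower stand beside 13.6% of all genes. Of 21 MYC targets and ribosome biogenesis genes 5 lay without overlap lower, at a median of -0.15, with the ribosome assembly factor Rrs1 at -0.40 (SE 0.085) and the nucleolar protein Nop58 at -0.47 (SE 0.16). Sterol and fatty acid synthesis had 3 of 21 at a median of -0.20, with Insig1, a brake on sterol synthesis, at -0.41 (SE 0.12) and Idi1, of the mevalonate pathway, at -0.54 (SE 0.17) with overlap. Oxidative phosphorylation had 5 of 30 at -0.12, and glycolysis and the hypoxia response 2 of 19 at -0.12. Without the JAK1 inhibitor the MYC and sterol lists had medians of -0.11 and -0.13, beside -0.055 over all genes. Those of oxidative phosphorylation and glycolysis, -0.044 and -0.053, were then not below that of all genes. The median over all genes itself varied with brightness, as given below.

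Other genes lay higher under the JAK1/TYK2-naming inhibitors, and Olfr316 had the smallest p in that direction with and without the JAK1 inhibitor. Olfr316, an olfactory receptor gene, read 6.96, 7.42, 7.27 and 7.13 with the JAK1, JAK1/2, PAN and TYK2 inhibitors, against 6.13, 6.28 and 6.72 with the JAK2 inhibitor, IFN.6226 and IFN.6228. All 4 values of the JAK1/TYK2-naming class lay above the other 3, by 0.82 (SE 0.15) and, without the JAK1 inhibitor, 0.89 (SE 0.14). Col1a1, a collagen chain, differed by 0.44 (SE 0.099) and Tns1, a focal adhesion protein, by 0.59 (SE 0.13), both without overlap. Skeletal muscle markers lay higher too: 6 of 10 tested were without overlap higher, beside 5.56% of all genes, at a median of 0.42 and, without the JAK1 inhibitor, 0.36. The mean over the 15 markers on the array was 7.01, 7.07, 6.499 and 6.58 with the JAK1, JAK1/2, PAN and TYK2 inhibitors, against 6.39, 6.24 and 6.42 with the JAK2 inhibitor, IFN.6226 and IFN.6228. Myl1, a fast-muscle myosin light chain, read 8.01, 7.68, 6.73 and 6.73 with the JAK1, JAK1/2, PAN and TYK2 inhibitors, against 6.55, 5.500 and 6.28 with the JAK2 inhibitor, IFN.6226 and IFN.6228. The mean of 4 erythroid markers was 6.25 to 6.35 in the JAK1/TYK2-naming class and 6.11 to 6.17 in the JAK2/JAK3-only class. Erythroid markers and Olfr316 lay near the filter on dim genes (log2 6.27), and the share of 5.56% is over genes of all brightness. Among the dimmest group of tested genes the median difference was 0.11. With the filter at the 60th percentile, genes without overlap higher were 66, against 659 with the filter used here. The part of muscle and erythroid markers in the other results was not tested.

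The class difference also varied with brightness and with the scaling of the arrays. In 5 groups of the tested genes, of nearly equal size and ordered from dimmest to brightest, the median difference was 0.11, -0.064, -0.14, -0.14 and -0.083. For the interferon-stimulated genes it was -1.04, -0.36, -0.56, -0.52 and -0.29 in the same groups, on 3, 13, 16, 21 and 28 genes, below the median of all genes in each. Over all genes as deposited, 1609 were without overlap lower and 659 higher. Quantile normalization left 654 and 650, cyclic loess 840 and 556, and centring on the median 2543 and 424. Of the 81 interferon-stimulated genes 45, 41 and 61 lay without overlap lower under these scalings, and 0 higher. Their median was -0.30, -0.33 and -0.43, beside -0.00067, -0.0080 and -0.14 over all genes.

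**Figure D5:**
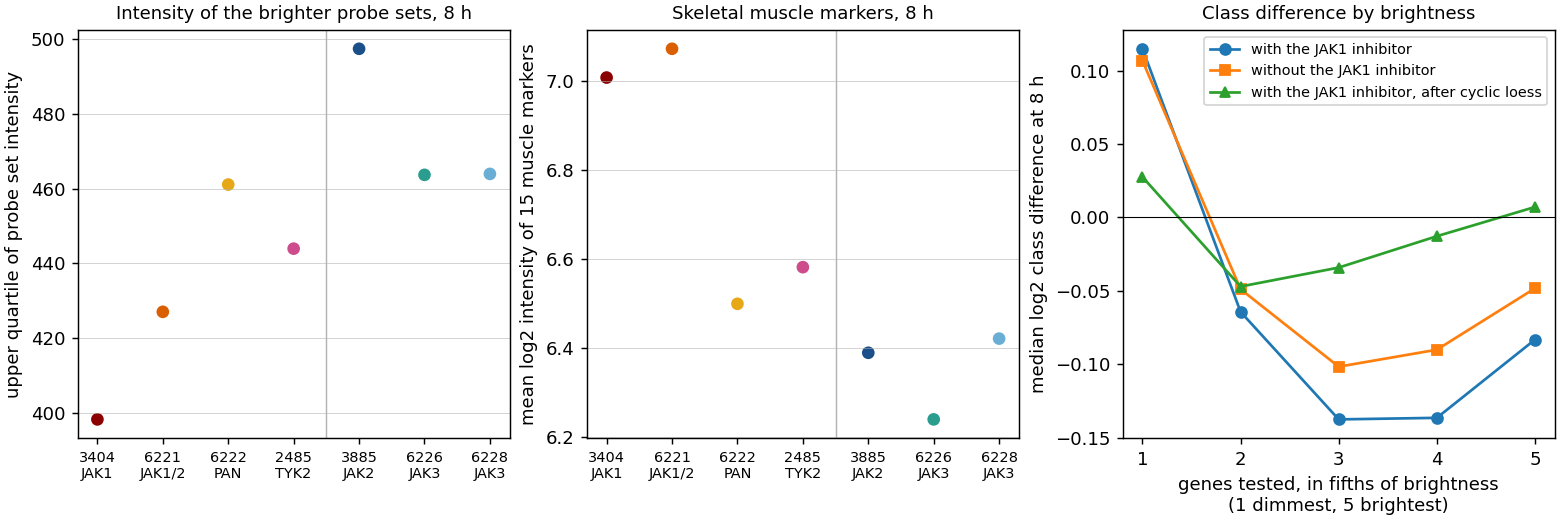
Upper quartile of probe set intensity (left) and mean log2 intensity of skeletal muscle markers (middle) on each 8 h array, JAK1/TYK2-naming inhibitors left of the grey line, and median log2 class difference at 8 h in 5 groups of genes by brightness (right; with the JAK1 inhibitor, without it, and with it after cyclic loess). Upper quartiles are 398 to 461 in the JAK1/TYK2-naming class and 464 to 497 in the JAK2/JAK3-only class, and with all inhibitors as deposited the median difference is 0.11 in the dimmest group and below 0 in the other 4.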

How the data were processed

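The deposited file holds 1 intensity per probe set and array. The authors used Affymetrix Power Tools and RMA, per the submitters' processing notes. Their versions, and which arrays entered 1 run, are not given in the sources used here. The deposited intensities, 4.78 to 22879 on a linear scale, were turned into log2 values here. Of 24922 probe sets, 21425 carried 1 symbol (19752 symbols) and were used, 1399 carried several and 2098 none. RefSeq names (GRCm38.p6) held 21347 identifiers and changed 0 symbols. A gene was its brightest probe set, and it was tested if that lay at or above the 40th percentile (log2 6.27). Precision is limited by how many arrays there are.

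Tests used limma 3.58.1 in R 4.3.3 (lmFit, eBayes with trend), with Benjamini-Hochberg adjustment over all genes and a threshold of 0.05, for single inhibitors over the 4 comparisons together. Residual degrees of freedom were 5 between classes, 4 without the JAK1 inhibitor and 2 for single inhibitors, where the lone array is assumed to vary like the JAK2/JAK3-only arrays. For 1 value, an exact test of 4 against 3 arrays cannot give a two-sided p below 0.0571, and none was run. The random block used statmod 1.5.0, and promoters and plots Python 3.11.15, numpy 2.4.6, pandas 2.3.3 and matplotlib 3.10.9.

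The members and the gene lists were chosen with earlier results of these data known, and lists are described by counts and medians with no test. Named genes are the 10 of smallest p in each direction with and without the JAK1 inhibitor, up to 4 per list by moderated t, a fixed set of JAK, STAT and interferon genes, and up to 10 in each direction with a called change between times, and not all are printed. Cell type markers, and genes named as such in the text, lie outside that rule. Alternatives were quantile normalization, median centring, cyclic loess, no filter or the 60th percentile, no trend in the variance, moderation made robust, an offset of 50 before the log, probe sets averaged, the JAK3 inhibitors averaged, the inhibitor as a random block over all 14 arrays, and each inhibitor left out.

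Simulated data with known answers tested these steps, with 200 of 11851 genes changed. At a log2 change of 1, 91% of them were called in the 8 h comparison, 92.5% without the JAK1 inhibitor, and 28.4% for a single inhibitor. At 0.5 the shares were 58.2%, 71.6% and 0%. The changed genes were drawn at random, and the noise was independent between arrays at each gene's own spread. These shares therefore do not give the chance of a call for interferon-stimulated genes, many of which had a wide spread with the JAK1 inhibitor. Mx2, at -1.19 (SE 0.40) between the classes at 8 h, was not called.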

Additional observations from a re-analysis of the deposited data

Results flagged for a closer look

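In 17 of 75 genes examined the array of 1 inhibitor stood far from the other 3 of the JAK1/TYK2-naming class at 8 h by Dixon's criterion, which chance meets in about 1 of 20 independent groups, and in all 17 it was the JAK1 inhibitor, with the lowest value. These genes share 1 array that was already known to stand apart, and many were chosen from the interferon lists or for a small p, so that the count describes that array and has no chance rate of its own. Its log2 intensity was 8.74 for Usp18, 10.08 for Trim25, 7.92 for Ifih1, 7.94 for Eif2ak2, 6.996 for Parp12, 9.70 for Parp14, 8.68 for Parp9, 8.08 for Rtp4 and 7.29 for Bst2. It was 9.73 for Irf1, 8.88 for Irf7, 10.25 for Irf9, 6.84 for Iigp1, 10.01 for Gbp4, 11.19 for Tap1, 9.58 for Rnf213 and 8.73 for Ifi213.

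The class difference at 8 h differed from that at 2 h in 28 named genes by the test of the change (limma, Benjamini-Hochberg adjusted). It was less negative at 8 h in each of these 28. Genes called only without the JAK1 inhibitor are counted here if they were among the 75 examined. H2ac4, whose change was called lower without the JAK1 inhibitor, was therefore not counted. With all inhibitors the change was 1.06 for Usp18, 1.00 for Ifit1, 0.70 for Gm12250, 0.90 for Rtp4, 0.70 for Slfn8, 0.83 for Irf7, 0.95 for Slfn5, 0.73 for Oas3, 0.66 for Irgm1, 0.86 for Dhx58, 0.52 for Trim25 and 0.64 for Ifi208. Without the JAK1 inhibitor it passed in 16 more, at 0.89 for Rnf213, 1.12 for Rsad2, 0.62 for Ddx58, 1.20 for Ifit3, 0.57 for Parp14, 0.81 for Cmpk2, 0.80 for Parp12, 0.81 for Oasl2, 0.67 for Ifih1, 0.79 for Mx1, 0.59 for Eif2ak2, 0.65 for Iigp1, 0.72 for Cxcl10, 0.60 for Stat2, 0.60 for Ifit2 and 0.49 for Ifi213.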

How the results depend on the processing

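At 8 h the count of called genes was 0 under every alternative with the JAK1 inhibitor, the random block included (consensus correlation 0.038). Without that inhibitor it was 1 with no filter on dim genes (Ifit3b, limma adjusted p = 0.00748) and 0 to 3 with another inhibitor left out (Ifi208, Ifit3 and Rsad2 without the PAN inhibitor, Olfr316 without IFN.6228). At 2 h, 82 calls became 46 with robust moderation, 34 with the JAK3 inhibitors averaged and 28 to 106 with an inhibitor left out. For the change between times, 12 calls became 23 after quantile normalization, 6 after median centring, 26 after cyclic loess, 7 with the offset, 2 with the JAK3 inhibitors averaged and 2 to 40 with an inhibitor left out. Without the JAK1 inhibitor 40 became 23 without the variance trend and 23 to 48 with another left out. Genes without overlap lower at 8 h were 654, 2543 and 840 after quantile normalization, median centring and cyclic loess and 1793 to 2971 with an inhibitor left out, and without the JAK1 inhibitor 842, 2812, 1063 and 2051 to 3529. Those higher were 424 after median centring, 1662 with no filter, 66 with the filter at the 60th percentile, 999 with the JAK3 inhibitors averaged and 712 to 1301 with an inhibitor left out. Without the JAK1 inhibitor they were 529 after median centring, 2146 with no filter, 92 with the filter at the 60th percentile and 930 to 1679 with another left out. Leaving an inhibitor out cannot lower a count without overlap, because fewer arrays then have to be apart. Calls for the JAK1, JAK1/2, PAN and TYK2 inhibitors were 3319, 1491, 15 and 179 after median centring, for the first 3 913, 175 and 2 after cyclic loess, and for the JAK1/2 and PAN inhibitors 234 and 2 with the filter at the 60th percentile.

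The sign of the class difference turned under an alternative for Irf9, Tyk2, Ifnar1, Ifnar2, Cish, Socs2 and Il2ra among the 75 genes examined. Irf9 without the JAK1 inhibitor was 0.041 after quantile normalization, 0.043 after cyclic loess and -0.044 to 0.011 with an inhibitor left out. Tyk2 was -0.051 after median centring, -0.037 with the JAK3 inhibitors averaged and -0.050 to 0.085 with an inhibitor left out, and without the JAK1 inhibitor 0.046 after quantile normalization, 0.031 after cyclic loess and -0.10 to 0.031. After quantile normalization and cyclic loess Ifnar1 was 0.0071 and 0.016 (0.0010 and 0.0095 without the JAK1 inhibitor), Ifnar2 was 0.028 and 0.032 (0.0020 and 0.0067 without the JAK1 inhibitor) and Cish was 0.077 and 0.081 (0.059 and 0.053 without the JAK1 inhibitor). With an inhibitor left out Cish was -0.27 to 0.37 (-0.26 to 0.38 without the JAK1 inhibitor), Socs2 was -0.37 to 0.085 (-0.33 to 0.12 without the JAK1 inhibitor) and Il2ra was -0.18 to 0.049 (-0.16 to 0.067 without the JAK1 inhibitor). The cause was not tested. No paired analysis was possible because the classes hold different inhibitors and every title carries the same replicate number, so that no array of one class has a partner in the other. The change between times was taken within each inhibitor. Precision is limited by the number of arrays and, for dim genes, by signal over background.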

Other observations

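Receptors and cell cycle genes of activated T cells showed small differences at 8 h. Of 16 costimulatory and inhibitory receptors, 4 lay without overlap lower under the JAK1/TYK2-naming inhibitors, at a median of -0.097, beside 13.6% and -0.082 for all genes tested. Btla, an inhibitory receptor, read 9.13, 9.21, 9.27 and 9.07 with the JAK1, JAK1/2, PAN and TYK2 inhibitors, against 9.39, 9.495 and 9.41 with the JAK2 inhibitor, IFN.6226 and IFN.6228. Its difference was -0.26 (SE 0.088) with the JAK1 inhibitor and -0.25 (SE 0.078) without it. Cd274 (PD-L1), an interferon-responsive ligand of PD-1, differed by -0.29 (SE 0.12) without overlap. Of 23 genes of G1 and S phase 4 lay without overlap lower, at a median of -0.11, with the replication helicase subunit Mcm3 at -0.24 (SE 0.091) and Gins1 at -0.25 (SE 0.088), and of 24 genes of G2 and mitosis 5 did, at -0.13, beside the same share and median of all genes. Cytokines and chemokines of CD4 T cells had 0 of 14 without overlap lower and 0 higher, at a median of -0.029, and T helper lineage regulators 1 of 14, at -0.047, that gene being Bcl6, the regulator of follicular helper cells, at -0.22 (SE 0.094).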
